A study of Sparus aurata with 6 samples.

Results

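In the intestine of gilthead seabream (Sparus aurata), 9 transcripts gave a signal well above background in all 3 pools fed the EOs-supplemented diet and in none of the 3 pools fed the control diet, for at least a share of 0.5 of their probes. No transcript met the same rule in the other direction. A transcript here is an expressed sequence tag (EST, a short read of complementary DNA) or a contig assembled from ESTs, and only the 6780 names of 15156 that were represented by 2 or more probes could enter. The 9 names made up 0.133% of these, and the control-only names 0%. They were selected on the detection marks of the same 6 arrays that compare the diets, so that their levels are given as a description and no test between diets is reported for them.

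Both groups were juvenile fish, with a body weight given as 155 g, sampled at day 65 from the mid-anterior intestine. The control group received a basal diet without essential oils (EOs). The EOs group received a diet with 0.5% of a microencapsulated additive made of synthetic garlic, carvacrol and thymol EOs. RNA of 4 fish was combined in each pool and each pool was hybridised with 1 dye to 1 array, so that the spread between pools is not the spread between individual fish.

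The mid-anterior intestine of a teleost digests and absorbs nutrients, and its epithelium and mucus form a barrier with resident immune cells. Carvacrol and thymol are phenolic monoterpenoids of aromatic plants, and garlic oil is rich in organosulfur compounds. In tissue RNA, a transcript can pass the detection limit on one diet because more cells carry it or because each cell holds more of it. These cannot be told apart. Detection also depends on the intensity needed for it, which differed between arrays, and the part of this was not tested. None of the 15156 names matched an entry among 32006 genes of the RefSeq annotation of assembly fSpaAur1.1. The names are therefore given without a gene or a role, and the tissue was not checked against marker genes of enterocytes, pancreas, blood or other cells.

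A spot was marked well above background by the extraction software from its own background and noise, and a probe was taken as detected on an array when a share of at least 0.5 of its spots carried the mark. The intensity needed for the mark differed between arrays. In the control pools 1, 2 and 3 the cut that best separated marked from unmarked spots lay at an intensity of 33.0, 63.1 and 16.9. In the EOs pools it lay at 54.8, 26.3 and 22.5. The lowest cut and the highest cut thus both belonged to control pools, and EOs pool 1 had a cut well above those of the other EOs pools. Negative control spots, which match no transcript, followed the same order, with the largest spread of background-subtracted signal in control pool 2 (SD 10.8, n = 149 spots) and the smallest in control pool 3 (SD 2.47, n = 139 spots). Detected probes made up 79.1, 79.9 and 81.9% of all 28793 probes in control pools 1, 2 and 3, against 79.8, 91.3 and 89.4% in the EOs pools. Fewer probes were detected in EOs pool 1 than in the other two EOs pools, and its share lay within the range of the control pools. The part that these differences in the cut had in the selection of the 9 names was not tested. Counts under common cuts are given further on as a description.

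**Figure D1:**
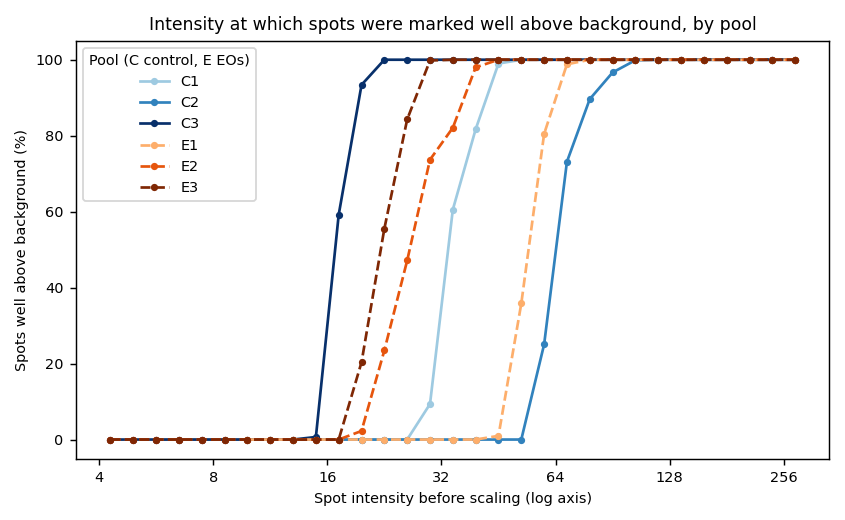
Share of spots marked well above background (vertical axis, percent) against spot intensity before scaling (horizontal axis, log scale), with 1 line for each of the 6 pools. The rise lies at the lowest intensity in control pool 3 (cut at 16.9) and at the highest in control pool 2 (cut at 63.1), with EOs pool 1 (54.8) next to it.

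The 9 names carried 28 probes in 51 spots. Of these, 18 probes met the rule themselves, 2 for every name, and the other 10 did not. Among the 18 probes, 12 were printed once, 5 in 2 spots and 1 in 15 spots. The spots of all 28 probes lay between rows 5 and 500 of the 532 rows of the array and between columns 2 and 84 of 85. Whether they cluster within this range was not tested. Of the names, 5 were numbered contigs and 4 were ESTs whose names begin with cDN, in a set where 28.8% of the multi-probe names were such contigs and 45.9% such ESTs. The remaining 25.3% of the names, which include a series of clustered seabream contigs, gave no member.

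Across the 18 probes, the difference between diets (EOs minus control, as log2 of the intensity scaled to each array's 75th percentile) ranged from 0.81 to 6.39, with a median of 1.95. The median over all 28793 probes was 0.17, with 65.4% of them higher on the EOs-supplemented diet, but it turned to −0.05 (45.3% higher) when arrays were scaled to their median and to −0.02 (47.9% higher) with quantile normalization. The differences rest on control signals under the mark and are not estimates of a fold change. Where a probe was below the mark in every control pool, a fold change is given only as a lower bound. The bound sets the mean of the EOs pools against, for each control array, the probe's own level or the level of the dimmest marked spot, whichever was higher. All bounds given here hold for the 75th percentile scaling and this floor only. They are not minima under other scalings, where the differences were smaller. The bounds reached at least 21.0-fold, with 4 probes above 4, 4 between 2 and 4, 8 between 1 and 2, and 2 with no bound above 1. In limma, an unadjusted p under 0.05 was found for 3406 of 24501 probes (13.9%), of which 2424 had the higher mean in EOs pools. Under median scaling 1145 of 2956 such probes did, with quantile normalization 1115 of 2672 and with normexp 1659 of 2976. After Benjamini-Hochberg adjustment over the tested probes, only 4 of the 24501 stayed under 0.05. The adjusted count was 8 under median scaling, 7 with quantile normalization and 7 with normexp. The same contrast chose the 9 names and let the 18 probes that met the rule pass the detection filter through the EOs pools alone. Calls among the probes of these names are therefore not counted.

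**Figure D2:**
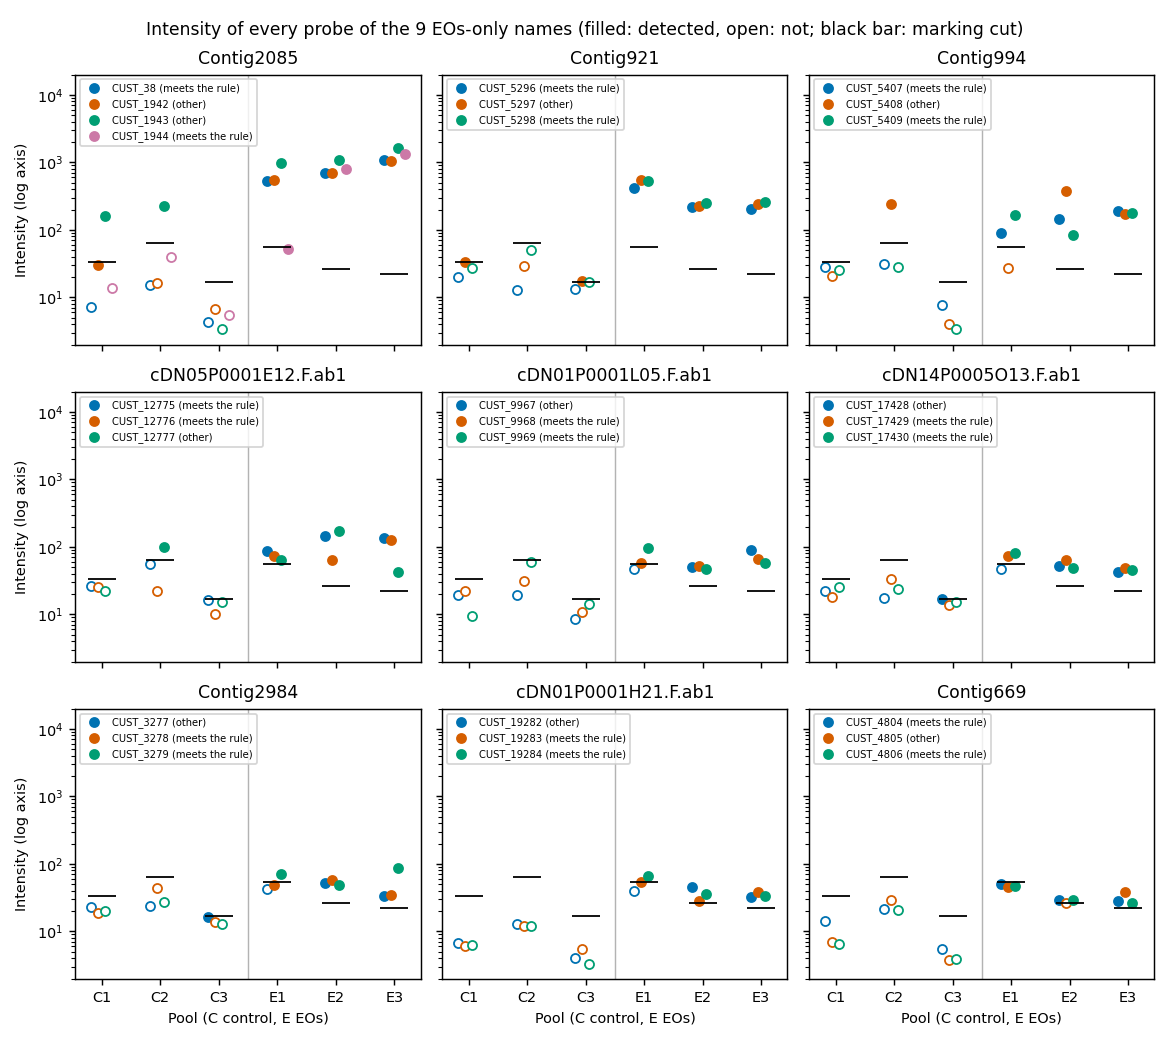
Intensity (vertical axis, log scale) of the 28 probes of the 9 names in control pools 1 to 3 (C1 to C3) and EOs pools 1 to 3 (E1 to E3). Filled points are detected, open points are not, and the black bar is the intensity at which spots were marked on that array; Contig2085 and Contig921 stand far above it in nearly all EOs values, Contig669 close to it.

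Contig2085 gave the brightest signal and the largest difference of the 9 names, with 4 probes of which 2 met the rule. Its probe CUST_38_PI419368177, printed in 15 spots, had an intensity of 7.1, 15.3 and 4.3 in control pools 1, 2 and 3, against 522, 686 and 1075 in EOs pools 1, 2 and 3, the order kept for all values that follow. The diets were far apart, and the repeated spots agreed in their mark within each pool. In each EOs pool 15 of 15 spots were marked, whereas 0 were marked in any control pool, where 15, 14 and 15 spots were usable. Its scaled log2 level averaged −7.89 ± 0.71 among control pools and −1.5 ± 0.50 among EOs pools (SD, n = 3 each), at least 21.0-fold higher. The second probe that met the rule, CUST_1944_PI419285025, gave 13.9, 40.2 and 5.5 in control pools, against 51.3, 785 and 1348 in EOs pools. It was therefore bright in EOs pools 2 and 3, whereas in EOs pool 1 only 1 of its 2 spots was marked and its level lay close to that of control pool 2. Its EOs pools spread over 4.74 on the log2 scale, and its bound was at least 10.73-fold.

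The other probes of Contig2085 showed signal on the control diet as well. CUST_1943_PI419285025 gave 163, 223 and 3.3 in control pools, against 962, 1066 and 1645 in EOs pools, with both spots marked in control pools 1 and 2. The contig was thus detected by this probe in all pools but control pool 3. CUST_1942_PI419285025, with 30.5, 16.1 and 6.6 against 544, 685 and 1030, was marked on 1 of its 2 spots in control pool 1. All 4 probes had their highest level in EOs pool 3 and their lowest EOs level in EOs pool 1. The differences of CUST_1943 and CUST_1942 were 4.39 and 5.74 on the log2 scale, beside 4.52 and 6.39 for the probes that met the rule. The 4.39 stood beside an SD of 3.18 among control pools (n = 3). The scaled log2 level of CUST_1943 was −3.44, −3.24 and −8.85 in control pools, against a mean of −0.78 in EOs pools. Its difference thus rests in large part on control pool 3, where it was not marked, and was smaller against control pools 1 and 2.

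Contig921 was second in size, with 3 probes printed once each. CUST_5296_PI419285025 had an intensity of 19.8, 12.9 and 13.5 in control pools, against 414, 214 and 205 in EOs pools. CUST_5298_PI419285025 had 27.6, 49.6 and 16.6 in control pools, against 537, 247 and 256.2 in EOs pools. The lowest EOs value exceeded the highest control value several-fold for each of them. The bounds were at least 7.62-fold and at least 9.20-fold, and the log2 differences 3.93 and 3.32. The remaining probe, CUST_5297_PI419285025, moved with them, at 32.9, 28.9 and 17.2 in control pools, against 540, 228 and 242 in EOs pools. It missed the rule because control pools 1 and 3 lay just at the mark, and its measured difference on the log2 scale was 3.42. In contrast to Contig2085, all 3 probes were highest in EOs pool 1, the pool with the highest cut among the EOs arrays.

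Contig994 had 2 probes that separated the diets and 1 that did not. CUST_5407_PI419285025 measured 27.9, 31.2 and 7.7 in control pools, against 89.5, 144 and 189 in EOs pools. CUST_5409_PI419285025 measured 25.6, 28.6 and 3.4 in control pools, against 166, 85.2 and 176 in EOs pools. Neither overlapped between diets, and the bounds were at least 3.89-fold and at least 3.93-fold. CUST_5408_PI419285025 measured 20.9, 242 and 4.0 in control pools, against 27.2, 373 and 172 in EOs pools, so that it was detected in control pool 2 and not in EOs pool 1. The 3 probes of this contig therefore ranked the pools differently, and the difference of 1.95 for the last probe stood beside SDs of 2.75 (control, n = 3 pools) and 1.90 (EOs, n = 3).

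The EST cDN05P0001E12.F.ab1 was the brightest of the 4 EST members. CUST_12775_PI419285025 gave 26.6, 56.2 and 16.3 in control pools, against 86.3, 146 and 137 in EOs pools. CUST_12776_PI419285025 gave 25.3, 22.3 and 10.2 in control pools, against 73.6, 63.1 and 127 in EOs pools. Every EOs value of these probes lay above every control value, with bounds of at least 3.43-fold and at least 2.43-fold. The remaining probe, CUST_12777_PI419285025, gave 21.8, 100.5 and 15.1 in control pools, against 63.2, 172 and 42.9 in EOs pools. For it the diets overlapped, as control pool 2 was marked and exceeded EOs pools 1 and 3. Control pool 2 was the highest control value for CUST_12775 and CUST_12777, but not for CUST_12776.

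The other 5 names lay close to the limit of detection on the EOs-supplemented diet. For cDN01P0001L05.F.ab1, CUST_9968_PI419285025 gave 22.2, 31.1 and 10.8 in control pools, against 58.6, 51.6 and 65.6 in EOs pools, at least 1.69-fold higher. CUST_9969_PI419285025 gave 9.5, 59.2 and 14.0 in control pools, against 97.4, 46.2 and 57.1 in EOs pools. Here control pool 2, which was not marked, was brighter than EOs pools 2 and 3, which were, so that the detection marks separated the diets while the intensities overlapped. The probe CUST_9967_PI419285025, which did not meet the rule, was marked in EOs pools 2 and 3 and in no control pool.

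For cDN14P0005O13.F.ab1, CUST_17429_PI419285025 gave 17.9, 33.5 and 13.7 in control pools, against 72, 63.7 and 48.5 in EOs pools. CUST_17430_PI419285025 gave 25.8, 23.5 and 15.4 in control pools, against 81.7, 48.0 and 45.1 in EOs pools. The diets did not overlap for either probe, with bounds of at least 1.75-fold and at least 1.63-fold. CUST_17428_PI419285025, at 22.2, 17.2 and 16.9 against 46.9, 51.6 and 41.8, was marked in control pool 3, where the cut was lowest, and not in EOs pool 1, where a brighter signal stayed under that array's cut.

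For Contig2984, CUST_3279_PI419285025 gave 19.9, 27.1 and 12.8 in control pools, against 70.5, 48.9 and 85.4 in EOs pools, at least 1.60-fold higher. CUST_3278_PI419285025 gave 18.8, 44.4 and 13.9 in control pools, against 47.8, 58.0 and 34.8 in EOs pools. It had the smallest difference of the 18 probes, 0.81, which turned to −0.04 with quantile normalization. Its diets overlapped, as control pool 2 lay above EOs pool 3. The third probe, CUST_3277_PI419285025, was marked in EOs pools 2 and 3 and in control pool 3, at 42.1, 52.4 and 33.8 on the EOs-supplemented diet and 23.3, 23.9 and 16.5 on the control diet.

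The EST cDN01P0001H21.F.ab1 had the lowest mean control levels of the 28 probes and a dim signal on the EOs-supplemented diet. CUST_19284_PI419285025 gave 6.2, 12 and 3.3 in the control pools, beside medians of 6.6, 12.8 and 3.4 for the negative control spots of these arrays, and 66.3, 35.8 and 33.2 in the EOs pools. CUST_19283_PI419285025 gave 6.1, 12.1 and 5.5 in control pools, against 53.8, 28.6 and 38.4 in EOs pools. The control values were thus at or near those of spots that match no transcript. Set against the dimmest marked spots of the control arrays in place of its own signal there, the bounds were at least 1.24-fold and at least 1.13-fold. The probe CUST_19282_PI419285025, with 39.0, 45.0 and 32 in the EOs pools, missed the mark in EOs pool 1 alone.

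Contig669 was the dimmest member. CUST_4804_PI419285025 gave 14.3, 21.3 and 5.5 in control pools, against 51.0, 29.0 and 28.1 in EOs pools, with 1 of its 2 spots marked in each EOs pool. CUST_4806_PI419285025 gave 6.5, 20.4 and 3.9 in control pools, against 46.6, 29.2 and 26.4 in EOs pools. The EOs values lay above the control values for both, but no bound above 1 could be given for either. For CUST_4805_PI419285025, which did not meet the rule, control pool 2 (28.8) was brighter than EOs pool 2 (26.3).

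**Figure D3:**
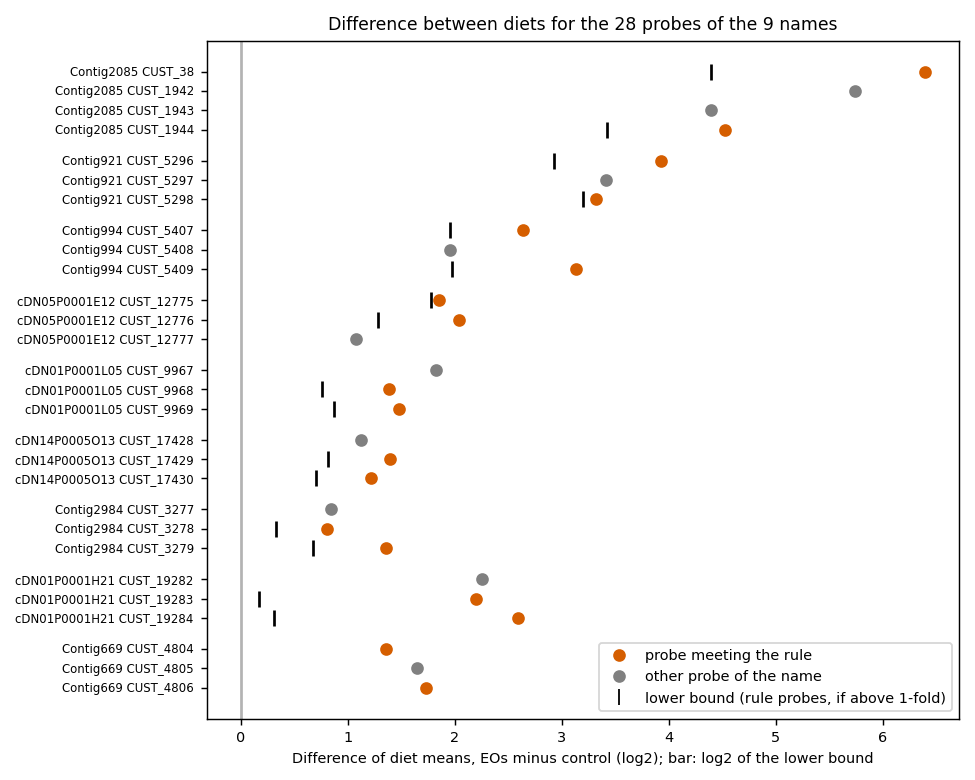
Difference between diet means (EOs minus control, log2, horizontal axis) for each of the 28 probes, grouped by name, with the log2 of the lower bound as a bar for the probes that met the rule and had a bound above 1-fold. With this scaling all 28 points lie to the right of 0 (27 with quantile normalization and 27 with normexp, the exceptions being probes of Contig2984), from 0.81 for Contig2984 to 6.39 for Contig2085, and the bars lie to the left of their points.

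All 10 probes that did not meet the rule were also higher on the EOs-supplemented diet by the means of the pools, except that CUST_3277 of Contig2984 was not with normexp (a difference of −0.0046). Of the 10, 3 overlapped between diets, as did 2 of the 18 that met the rule. Among all 157 EOs-only probes 46 overlapped, and the share over all 28793 probes was not counted. The rule itself favours probes without overlap, so that these counts are no result about the members. Of the 10, 5 were detected in 1 control pool, 2 in 2 control pools and 3 in none. In the EOs pools, 4 of the 10 were detected in all 3 and 6 in 2 pools. The probes of one name are labelled with the same EST or contig and are not taken as separate cases. Whether they bind the same transcript was not tested. The EOs pool with the highest level was pool 1 for 11 probes, pool 2 for 7 and pool 3 for 10, and in 2 names (Contig2085 and Contig921) all probes had the same highest pool. The highest level was thus not tied to one EOs pool across the members.

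For the 18 probes that met the rule, the label of one-diet detection holds for the mark used and not for weaker evidence of signal. On the control diet, 47 of the 54 values of the 18 probes (3 pools each) exceeded the median of the negative control spots of their array, and 40 exceeded its 95th percentile. The 99th percentile was exceeded by 0, 5 and 0 of the 18 probes in control pools 1, 2 and 3, and by 18 in each EOs pool. It lay at an intensity of 128, 39.1 and 20.0 in control pools 1, 2 and 3. The extraction software also marks spots whose signal is significantly positive, a weaker criterion. This mark was carried by 43 of the 54 control values and by 54 of the 54 EOs values. The EOs count for the weaker mark follows from the rule, which required the stronger mark in every EOs pool. The control counts are of values chosen to lie under the stronger mark, and the shares over all probes were not counted. Probes that carried the weaker mark in no control pool were CUST_38 of Contig2085 and CUST_19284 of cDN01P0001H21.F.ab1. None of the 9 names met the rule when the weaker mark took the place of the stronger one, and 4 other names did. The 18 probes are therefore described as well above background on the EOs-supplemented diet only, and not as absent from the control diet. This does not hold for every probe of the 9 names. Of the other 10 probes, 5 carried the stronger mark in 1 control pool and 2 in 2 control pools, among them probes of Contig2085.

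In rank among all probes of an array, the 18 probes lay at the dim end on the control diet and somewhat higher on the EOs-supplemented diet. This follows largely from the rule, which takes probes under the mark in every control pool and over it in every EOs pool. On the control diet their median percentile was 16.9, 13.7 and 15.5 in pools 1, 2 and 3, with the highest at 20.4. On the EOs-supplemented diet it was 24.7, 17.1 and 20.6. The median rank in EOs pool 2 was thus close to that in control pool 1, while the marking cut of EOs pool 2 lay lower (26.3 against 33.0). The members with ranks well above this were Contig2085, up to the 68.3 percentile, and Contig921, up to the 54.3 percentile.

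A common cut, chosen after the data were seen, was set for all arrays on the scaled level, with detection read from each probe's mean level. At the highest of the arrays' own cuts (log2 level −5.07), 4 of the 9 names still met the rule: Contig2085, Contig921, Contig994 and cDN05P0001E12.F.ab1. In all, 11 names were then EOs-only and 2 were control-only. At the lowest cut (−6.52), Contig2085 and cDN01P0001H21.F.ab1 met it, among 8 EOs-only and 0 control-only names. Contig2085 alone of the 9 met the rule at both. It did so with CUST_38 and with CUST_1942, which had not met the rule as stated. CUST_1944, which had, lay under the highest cut in EOs pool 1 (−5.36) and over the lowest cut in control pool 2 (−5.72).

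**Figure D4:**
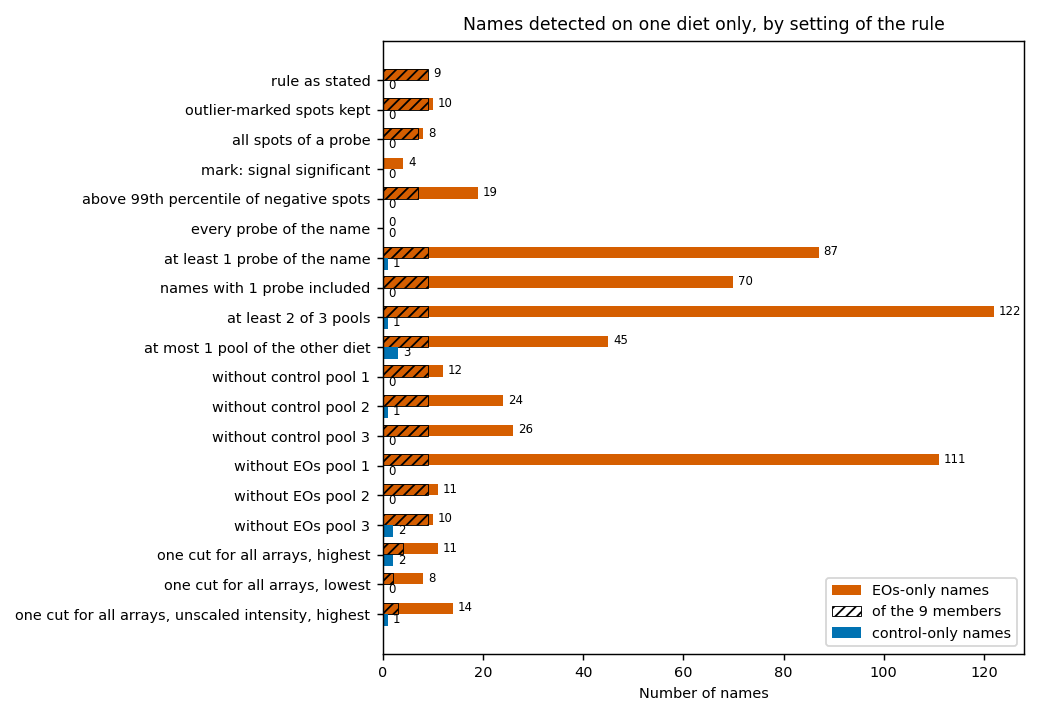
Number of names (horizontal axis) that were EOs-only or control-only under the rule as stated and under each alternative, with the part made up of the 9 members hatched. EOs-only names outnumbered control-only names under every setting that found any, from 4 with the weaker mark to 122 with detection in 2 of 3 pools, and 111 without EOs pool 1.

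The pool that limited the set most was EOs pool 1. Without it, 111 names were EOs-only, against 9 with all pools, and without control pools 2 and 3 the number was 24 and 26. Leaving out a pool removes a condition, so that the members meet the rule in each of these cases by construction. The number of names also depended on the share of probes required. With every probe required 0 names were left, and with 1 probe sufficient there were 87.

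Just inside the share of 0.5 lay Contig2085, with 2 of 4 probes, and the other 8 names had 2 of 3. Just outside lay 78 names, 77 with 1 of 3 probes and 1 with 1 of 4. The largest mean difference among those with 1 of 3 belonged to SCT1019_H03_JP9_2H3_009.ab1. Its probe CUST_5783_PI419285025 met the rule with 18.5, 28.0 and 5.8 in control pools, against 100.4, 217 and 182 in EOs pools. Its other probes were bright in control pool 2, at 272 and 362. Next came cDN09P0006O24.F.ab1, whose probe CUST_15219_PI419285025 gave 6.0, 30.6 and 3.2 in control pools, against 114, 85.5 and 29.9 in EOs pools, and Seabream_2006-01-03-CL3098Contig1, whose probe CUST_7975_PI419285025 gave 6.6, 15.6 and 11.4 against 76.2, 36.4 and 93.6. In EOs pools the probe of SCT1019_H03_JP9_2H3_009.ab1 was as bright as those of Contig994, with a bound of at least 4.59-fold, whereas the probes of the other two names had bounds of at least 1.92-fold and at least 1.85-fold.

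At the level of single probes, 157 of 28793 (0.545%) were EOs-only and 1 (0.00347%) was control-only. The control-only probe, CUST_10928_PI419285025, was bright on the control diet, at 753, 2539 and 711 in control pools, against 10.9, 6.5 and 8.6 in EOs pools, at least 48.4-fold lower on the EOs-supplemented diet. Its EST, cDN02P0003O10.F.ab1, was no member, because only 1 of its 3 probes met the rule. CUST_10927_PI419285025 gave 16472, 38645 and 12837 in control pools, against 15.5, 222 and 188 in EOs pools, and was detected in 2 EOs pools. CUST_10929_PI419285025 gave 79517, 147222 and 75068 in control pools, against 66.7, 158 and 118 in EOs pools, and was detected in 3. Both were thus also far lower on the EOs-supplemented diet, although still detected there. The absence of control-only names thus did not mean that no transcript fell steeply.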

How the data were processed

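Members and gene lists were chosen with earlier results of these data known. For each of the 6 arrays the authors deposited the spot intensity from Feature Extraction (version 10.7.3.1 by the file headers), background-subtracted and detrended, with 0 or 1 marks for each spot. A further table deposited by the authors held log2 values. All 251678 matched, within 1e-06, the background-subtracted signal of their spot on the log2 scale, so that it was not normalized between arrays.

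Of 45220 features, the 43803 other than controls were used, without spots marked as outliers (58 to 340 per array). No spot was saturated. Intensities are means over the spots of a probe. Levels are mean log2 intensities minus the 75th percentile of the array. All names that met the rule were named, as 12 or fewer did. Limma 3.58.1 in R 4.3.3 was fitted to probes detected on at least 3 of 6 arrays, two-sided, with diet as the only term, after a check on simulated data. Other steps used Python 3.11.15, pandas 2.3.3 and matplotlib 3.10.9. No slide held more than 1 of these 6 arrays and the scan day was shared, so that neither could be fitted as a batch. The number of arrays limits the precision. Alternatives were other detection marks and cuts, shares, pools, scalings and normexp on the median signal.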

Additional observations from a re-analysis of the deposited data

How the results depend on the processing

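The 9 EOs-only names became 4 with the mark for significant signal, 19 with the 99th percentile of the negative control spots, 0 with every probe required, 87 with 1 probe sufficient, 70 with single-probe names included, 122 with detection in 2 of 3 pools, 45 with 1 pool of the other diet allowed, and 14 with a common cut on the unscaled intensity. The 0 control-only names became 1 with 1 probe sufficient, 1 with 2 of 3 pools, 3 with 1 pool of the other diet allowed, 2 with the highest common cut on the scaled level and 1 with the common cut on the unscaled intensity. Leaving out 1 pool gave 10 to 111 EOs-only names (24, 26 and 111 without control pools 2 and 3 and EOs pool 1) and 0 to 2 control-only names (1 without control pool 2 and 2 without EOs pool 3). The common cuts were added after seeing the data. The 99th percentile of the negative control spots lay at an intensity of 128 in control pool 1, against 15.4 to 39.1 on the other arrays. Its part in the count of 19 was not tested.

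The median log2 difference of the 18 probes was 1.95. It was 1.25 with quantile normalization, 0.48 with normexp (offset of 50), and 1.64 to 2.24 without 1 pool. An offset compresses dim signals, and normexp also started from the median signal. The part of each in the lower value was not tested. Single names fell as low as 0.24 (Contig2984, with quantile normalization) and 0.22 (Contig669, with normexp). As the rule chose the probes for this direction on the same arrays, its sign is no sign of stability. With a lower floor, the dimmest average of a detected probe, the bounds of the 18 probes ran from 1.75 to 45.2. Bounds were not computed under other scalings. With quantile normalization the log2 differences of CUST_17429 and CUST_17430 were 0.58 and 0.41, beside 1.39 and 1.22 with the 75th percentile, so that the bounds can be lower there. The limma count of 3406 probes ranged from 2196 to 5086 without 1 pool (2196 without control pool 1 and 2270 without EOs pool 2). Same-numbered pools deviated together by correlations of 0.14, 0.48 and 0.02, so that the numbers were not taken as pairs. With the pool number as a replicate block 4195 probes had an unadjusted p under 0.05, and 1 stayed under 0.05 after Benjamini-Hochberg adjustment. Most members lay near the marking limit, where the arrays differed. The cause of the one-diet detection was not tested.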

Other observations

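Of the 157 EOs-only probes, 18 belonged to the 9 members, 78 to 78 other names with several probes, and 61 to names with a single probe, which the rule did not admit. The single-probe names were dim. Their bounds had a median of 1.32 and a highest value of 3.08, 12 of the 61 had none above 1, and 28 overlapped between diets. The highest belonged to the EST cDN08P0005E18.F.ab1, whose probe gave 26.4, 33.8 and 9.3 in control pools, against 75.6, 92.9 and 193 in EOs pools. Of the 78 probes of other names, 16 overlapped between diets and 3 had bounds above 4. Among all 157 probes 46 overlapped, and the share over all probes of the array was not counted. As the rule itself favours probes without overlap, these overlap counts are no result about the probes.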
